A study of Tupaia belangeri with 15 samples.

Results

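To examine how the transcriptome of the tree shrew (TS) retina differed between the mature and the senile stage, the nuclei of 5 retinas labelled Senile were compared with those of 5 retinas labelled Mature, chosen by these labels alone. They are 10 of the 15 retinas profiled by single-nucleus RNA sequencing (snRNA-seq), and the other 5, labelled Infancy, are given beside them only as levels. The labels name a tissue (retina) and a stage and give no genotype, strain or treatment. Infant and mature TSs came from a university animal centre and senile TSs were purchased from another institute, so stage and source of the animals cannot be told apart in any value below. Nuclei were kept if over 200 and below 6000 genes were found in them and mitochondrial counts were below 5%, 40439 of mature and 37057 of senile TS out of 119765 in all. Their raw counts of unique molecular identifiers (UMIs, each standing for 1 captured RNA molecule) were summed per retina, and the retina was the replicate in every comparison.

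The retina turns light into nerve signals. Cones and rods detect light through opsins, transducins and the phosphodiesterase PDE6, bipolar cells (BCs) carry the signal inward, horizontal cells (HCs) and amacrine cells (ACs) shape it, and retinal ganglion cells (RGCs) send it to the brain. The TS is active by day and its retina is rich in cones. Ageing retinas of mammals are known for loss of rods and RGCs in some species, for activation of glia and for accumulation of immune and complement products, and dividing cells that stop with age are known to carry more of the cell cycle inhibitors of the INK4 group.

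Across all features, no difference between senile and mature retinas passed the correction for the number of features tested. Among 27289 features, edgeR's quasi-likelihood test called 0 at an adjusted p of 0.05 (0%), the lowest adjusted p being 0.343. At an unadjusted p under 0.05 there were 2041 features (7.48%), 1182 of them with a higher level in senile retinas (4.33%) and 859 with a lower one (3.15%). The 5 senile and 5 mature levels did not overlap for 202 features higher in senile retinas (0.74%) and 38 lower (0.139%). DESeq2, run on the same counts and design, called 123 features as higher (0.483% of 25471 with an adjusted p) and 36 as lower (0.141%), of which 13 and 27 were single named genes. When features with low counts were kept, edgeR called 41 as higher (0.0658% of 62292) and 7 as lower (0.0112%). The genes below are therefore described by their levels, and an adjusted p is edgeR's unless DESeq2 is named.

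Levels are given as CPM, the UMIs of a gene scaled to an equal total in every retina, uncorrected for gene length, and fold changes on the log2 scale of the fit, with the Cell Ranger version of each file as a term. In bulk sums of this kind, fewer cells of a type and less RNA per cell cannot be told apart. The retinas held 13429873 to 50900459 UMIs, with a median of 1461 to 5589 per nucleus. The median UMIs per nucleus averaged 3713 ± 1333 in mature and 2413 ± 800 in senile retinas (SD, n = 5 each; 2-sided exact permutation p = 0.111, adjusted p = 0.349 over 11 library values). Files of Mature 1 and 2 and Senile 1 and 2 name Cell Ranger 6.1.2 and the others name 7.0.1. No pair of libraries shared more than 29 cell barcodes, at most 0.405% of the smaller one. Y-linked RNA was found in 2 of 5 mature and 3 of 5 senile retinas (DDX3Y at 26.8 to 46.7 CPM, against at most 0.0798 in the others).

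Mature 4 and Senile 3 stood apart from the other retinas of their stage. Lens markers summed to 9906 CPM in Mature 4, against 5.44 to 28.8 CPM in the other mature retinas. In senile retinas they summed to 4.17 to 149 CPM, highest in Senile 4. The lens filament genes BFSP1 and BFSP2 had log2 fold changes of -5.08 and -4.04 at an unadjusted p under 0.05, which were 0.43 and 0.29 without Mature 4 and Senile 3. Mature 4 also had the highest sum of the vascular markers, with 693 CPM against 85.1 to 166 CPM in the other mature retinas. Most of this sum was a single gene, MECOM, at 579 CPM. FLT1 and KDR, also on the list, reached at most 43.7 and 40.4 CPM in any mature retina. A library profile score was taken from 5019 features that were higher and 2715 that were lower in the infant libraries of version 7.0.1 than in those of 6.1.2. It lay between -3.22 and -2.62 in the 4 mature and senile libraries of version 6.1.2 and between -1.10 and -0.21 in those of 7.0.1 other than Senile 3. Senile 3, whose file names 7.0.1, had a score of -2.55, near the libraries of the older version. Without these retinas edgeR called 0 features as well (1738 higher and 1322 lower at an unadjusted p under 0.05). Values of several lists and genes without 1 or both of them are given beside the results.

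**Figure D1:**
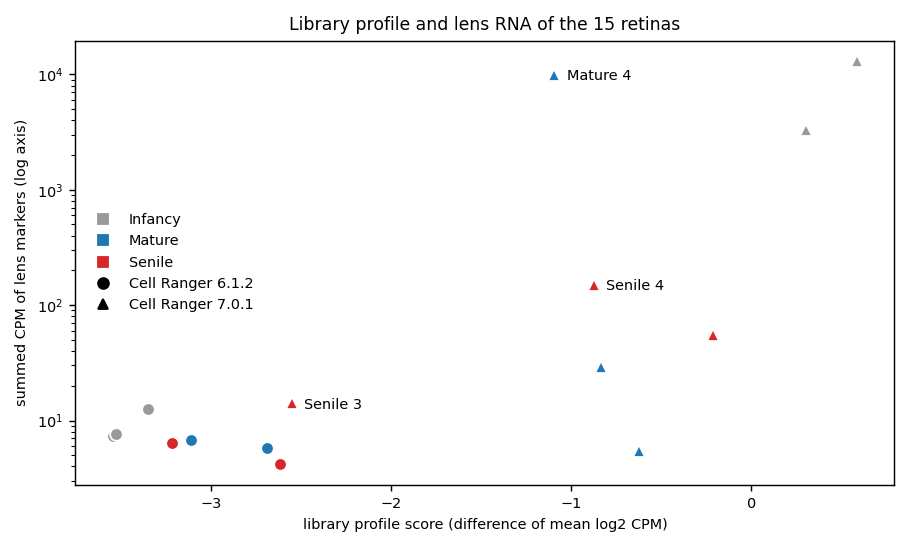
Summed CPM of the lens markers (vertical, log axis) against the library profile score (horizontal, difference of mean log2 CPM) for each of the 15 retinas, coloured by stage, with circles for Cell Ranger 6.1.2 and triangles for 7.0.1. Mature 4 sits at 9906 CPM of lens markers, between Infancy 5 (3282 CPM) and Infancy 4 (13070 CPM), and Senile 3 lies at -2.55 among the circles.

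CDKN2B, which encodes the INK4 inhibitor p15 of the cell cycle kinases CDK4 and CDK6, was at 3.40, 4.30, 1.42, 0.877 and 1.45 CPM in Mature 1 to 5 and at 6.96, 6.93, 5.46, 4.35 and 4.49 CPM in Senile 1 to 5. Every senile retina lay above every mature one, although the lowest senile level is close to the highest mature one. The infant retinas reached from 0.269 to 1.05 CPM, below all senile and nearly all mature retinas. Its log2 fold change was 1.41 ± 0.28 (SE; 95% interval 0.79 to 2.04), with an adjusted p of 0.36 in edgeR and of 0.000574 in DESeq2. Within version 6.1.2 it was 0.73 ± 0.31 and within 7.0.1 it was 1.88 ± 0.38.

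NUDT4B, a member of the Nudix hydrolases that act on inositol pyrophosphates, had the largest fold change of the 20 single named genes with the smallest p. It was at 3.17, 2.21, 0.806, 0.505 and 0.495 CPM in Mature 1 to 5 and at 3.94, 10.1, 3.72, 3.68 and 4.02 CPM in Senile 1 to 5. The stages did not overlap, Senile 2 was far above the other senile retinas, and the mature levels of version 6.1.2 were the highest of their stage. Senile over mature, its log2 fold change was 2.04 ± 0.37 (adjusted p = 0.343; DESeq2 adjusted p = 6.997e-05). As the symbol marks a near copy of NUDT4, reads could be split between the 2 genes and the value is uncertain.

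Genes of the photoreceptors stood on both sides. RCVRN, which encodes recoverin, the calcium sensor that restrains opsin kinase, was at 117 to 177 CPM in mature and at 183 to 386 CPM in senile retinas. These ranges did not overlap, with Senile 3 the highest (log2 fold change 0.80 ± 0.20, adjusted p = 0.45). Within version 6.1.2 the difference was smaller (0.28 ± 0.21) than within 7.0.1 (1.16 ± 0.21).

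PDE6H, the inhibitory subunit of the cone phosphodiesterase, was at 151, 142, 274, 154 and 106 CPM in Mature 1 to 5 and at 210, 312, 411, 272 and 363 CPM in Senile 1 to 5. Mature 3 alone reached into the senile range (log2 fold change 0.84 ± 0.23, adjusted p = 0.538, DESeq2 0.139). A UMI of PDE6H was found in 27.8% ± 5.71 of nuclei in mature and 38.7% ± 13.2 in senile retinas (SD, n = 5). With each nucleus thinned to 1000 UMIs, which left out 2016 mature and 3533 senile nuclei, the shares were 10.9% ± 2.11 and 22.3% ± 5.67. Nuclei were not assigned to classes here, so the share due to free RNA was not measured.

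PDE6B, a catalytic subunit of the rod phosphodiesterase, was at 7.64, 10.1, 19.3, 12.8 and 17.2 CPM in Mature 1 to 5 and at 3.80, 6.26, 7.90, 11.3 and 8.29 CPM in Senile 1 to 5. The stages overlapped when all 10 retinas were taken, but not among the retinas of either Cell Ranger version. A log2 fold change of -0.91 ± 0.22 resulted (adjusted p = 0.421; DESeq2 adjusted p = 0.0143), and it was -0.94 ± 0.36 within 6.1.2 and -0.89 ± 0.28 within 7.0.1.

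B2M, the light chain of class I histocompatibility molecules, was at 13.4, 21.7, 5.21, 13.1 and 7.35 CPM in Mature 1 to 5 and at 15.2, 35.9, 92.4, 42.4 and 45.8 CPM in Senile 1 to 5. Senile 3 was the highest and Senile 1 lay within the mature range. The log2 fold change was 1.85 ± 0.52 (adjusted p = 0.538; DESeq2 adjusted p = 0.0261) and 1.49 without Senile 3. It was 0.43 ± 0.45 within version 6.1.2 and 2.77 ± 0.45 within 7.0.1.

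The other genes with the smallest p and a higher level in senile retinas were VWDE, CHTOP, ASIC2, NME2 and PUS7L. VWDE, which encodes a protein with von Willebrand factor and EGF domains, was at 3.53 to 12.3 CPM in mature and at 11.1 to 47.1 CPM in senile retinas, and Senile 5 alone overlapped (log2 fold change 1.48 ± 0.35, adjusted p = 0.417). CHTOP, a chromatin-bound factor of mRNA export, was at 112 to 165 and 155 to 339 CPM (0.89 ± 0.22, adjusted p = 0.43). ASIC2, an acid-sensing ion channel of neurons, was at 30.6 to 71.2 and 74.2 to 197 CPM with no overlap (1.12 ± 0.28, adjusted p = 0.492).

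NME2, a nucleoside diphosphate kinase, was at 154 to 217 CPM in mature and 291 to 342 CPM in 4 of the senile retinas, with 740 CPM in Senile 3. Its stages did not overlap, and its log2 fold change of 1.05 ± 0.27 (adjusted p = 0.495) was 0.69 without Senile 3. PUS7L, a relative of the enzymes that make pseudouridine in RNA, had the narrowest mature range, 6.08 to 7.84 CPM, against 9.23 to 14.7 CPM in senile retinas (0.65 ± 0.17, adjusted p = 0.495). Of the 10 genes higher in senile retinas, 6 did not overlap between the stages, against 55 of 11847 single named genes. In DESeq2 6 passed, against 13 of 11525 single named genes. These counts follow from how the 10 were chosen.

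The gene with the smallest p among single named genes was ADAMTS19, a secreted metalloprotease. It was at 72.2, 57.4, 87.7, 154 and 145 CPM in Mature 1 to 5 and at 33.0, 26.5, 49.4, 73.9 and 49.9 CPM in Senile 1 to 5. Within each version all senile retinas lay below all mature ones, and only Senile 4 reached above 2 mature retinas of the other version. Its log2 fold change was -1.22 ± 0.19 (95% interval -1.64 to -0.79; adjusted p = 0.343; DESeq2 adjusted p = 7.39e-05). It was -1.24 ± 0.22 within 6.1.2 and -1.20 ± 0.28 within 7.0.1.

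ZBTB16, a zinc finger repressor of transcription, was at 59.7 to 93.7 CPM in mature and 30.0 to 61.9 CPM in senile retinas (log2 fold change -0.81 ± 0.17, adjusted p = 0.387). FKBP5, a co-chaperone of the glucocorticoid receptor that is itself induced by glucocorticoids, was at 13.8, 10.5, 13.6, 64.6 and 16.3 CPM in Mature 1 to 5 and at 4.31, 2.76, 13.8, 9.23 and 9.30 CPM in Senile 1 to 5. Mature 4, highest of the mature and senile retinas in lens markers, stood far above the rest. The log2 fold change of FKBP5, -1.72 ± 0.40 (adjusted p = 0.417), was -1.14 without Mature 4.

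PRPF6, SAFB2, ATP2B4, TMC3, C16ORF58 and UBALD1 made up the rest of the 10 genes with a lower level in senile retinas. PRPF6, a spliceosome protein linked to inherited rod disease, was at 53.4 to 119 and 43.2 to 78.2 CPM, and SAFB2, a scaffold attachment factor, at 46.5 to 100.1 and 47.3 to 55.5 CPM. Both overlapped, with log2 fold changes of -0.55 ± 0.13 and -0.60 ± 0.14. ATP2B4, which pumps calcium out across the plasma membrane, was at 10.7 to 20.3 and 6.87 to 12.4 CPM (-0.83 ± 0.18, adjusted p = 0.387).

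TMC3, of the family of the transmembrane channel-like proteins, was the only one of these 10 genes with no overlap, at 11.5 to 19.3 against 6.03 to 11.4 CPM (-0.78 ± 0.16, adjusted p = 0.36). C16ORF58 had a log2 fold change of -0.61 ± 0.13 and UBALD1 one of -0.72 ± 0.17. All 10 genes lower in senile retinas passed in DESeq2, against 27 of 11525 single named genes. Only 1 did not overlap, against 23 of 11847. These counts too follow from how the 10 were chosen. All 20 genes, higher or lower, kept their direction within each Cell Ranger version. The 20 were chosen on these same retinas, so this is no separate support.

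**Figure D2:**
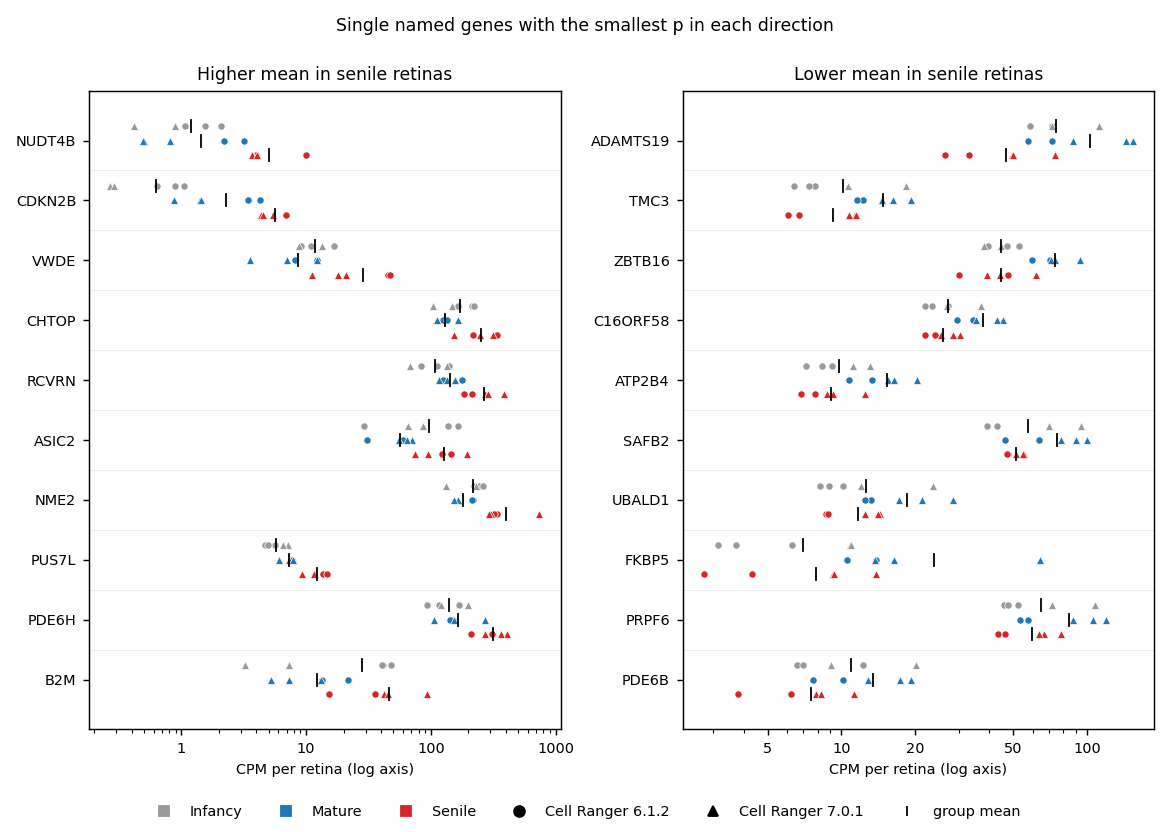
CPM per retina (log axis) of the 10 single named genes with the smallest p and a higher mean in senile retinas (left) and the 10 with a lower one (right), coloured by stage, with circles for Cell Ranger 6.1.2, triangles for 7.0.1 and a bar at each mean of 5 retinas. CDKN2B shows all senile retinas at 4.35 CPM or more and all mature ones at 4.30 or less, and FKBP5 shows Mature 4 apart at 64.6 CPM.

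Markers of the cell classes were then compared to see which classes gave more or less RNA. List members are single named genes, which had a median of -0.06 in all, with 4652 of 11847 above 0, 1.79% higher and 4.84% lower at an unadjusted p under 0.05. These are the background of every list below, beside the shares over all features. Among the same kind of gene, 256 of 11813 were higher and 979 lower without Mature 4 and Senile 3, 116 of 11664 higher and 362 lower within version 6.1.2, and 280 of 12114 higher and 232 lower within 7.0.1, so counts of lower members without both retinas stand against a larger background. Cone markers were 13, of which 9 could be tested, and all 9 had a fold change above 0, with a median of 0.17, against 0.03 over all features and -0.06 over single named genes. Only PDE6H had an unadjusted p under 0.05. ARR3, the cone arrestin, was at 1043 ± 548 CPM in mature and 1222 ± 351 CPM in senile retinas (SD, n = 5). The summed cone level was at 946 to 3672 CPM in mature and 1890 to 3329 CPM in senile retinas, so the senile retinas lay inside the mature range. The median of the list was -0.09 within version 6.1.2, 0.41 within 7.0.1 and -0.07 without Mature 4 and Senile 3, so its sign turned with the libraries.

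Of 14 rod markers 10 were tested, and 8 of these had a fold change below 0, with a median of -0.69. PDE6G and CNGA1, which mark rods in other species, were listed at 0 in every mature and senile retina, so the rod level rests on the other members. PDE6A, PDE6B, NR2E3 and ESRRB were lower in senile retinas at an unadjusted p under 0.05 (4 of 10, against 3.15% of all features) and ROM1 was higher (1 of 10, against 4.33%). The list median was -0.41 within version 6.1.2, with 2 lower and 0 higher. Within 7.0.1 it was -0.71, with 4 lower and 1 higher. NR2E3, the nuclear receptor that keeps rods from cone fate, was at 1.68, 2.13, 16.3, 14.4 and 13.4 CPM in Mature 1 to 5 and at 0.321, 2.76, 3.31, 4.98 and 2.80 CPM in Senile 1 to 5. Its difference lay in the retinas of version 7.0.1, and Senile 2 was above both mature retinas of version 6.1.2. This gave a log2 fold change of -1.48 ± 0.49 (adjusted p = 0.631).

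ROM1, an outer segment disc protein of rods and cones, was at 17.0 to 39.4 CPM in mature and 24.8 to 73.8 CPM in senile retinas (0.88 ± 0.29, adjusted p = 0.631, and 0.54 without Senile 3). CLUL1, a relative of clusterin that the study uses as a rod marker, was at 68.7 ± 15.9 CPM in mature and 43.6 ± 42.5 CPM in senile retinas, from 0.321 to 111 CPM among the senile ones. With that spread its log2 fold change of -0.74 ± 0.80 says little (adjusted p = 0.822; 95% interval -2.49 to 1.01). The summed rod level was at 194 to 283 CPM in mature and 120 to 373 CPM in senile retinas.

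RGC markers had the highest median of the neuron classes, 0.68 over 12 tested of 15, and 11 of 12 were above 0. NRN1, a neurite growth factor, and POU4F1, a transcription factor of RGCs, were higher at an unadjusted p under 0.05 (2 of 12, against 4.33%). NRN1 was at 36.0, 52.8, 12.8, 4.44 and 6.68 CPM in Mature 1 to 5 and at 48.3, 65.5, 49.3, 15.7 and 19.1 CPM in Senile 1 to 5. Retinas of version 6.1.2 were the highest of the mature stage, and the senile range overlapped the mature one (1.15 ± 0.43, adjusted p = 0.651, and 0.69 without Senile 3). The median of the list was 0.07 within version 6.1.2 and 1.09 within 7.0.1, and it was 0.23 without Mature 4 and Senile 3, where SNCG of Senile 3 stood at 623 CPM against at most 176 CPM in mature retinas. The 2 higher of 12 became 0 higher and 1 lower without these retinas, 0 within version 6.1.2 and 5 within 7.0.1. With the library profile score in place of the version term the median was 0.37, with 1 of 12 higher.

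BC markers had a median of -0.33 over 10 tested of 14, which was -0.09 with 0 lower without Mature 2. TRPM1, the cation channel of ON BCs, PRKCA, the kinase of rod BCs, and GPR179, which holds the ON cascade at the dendrite, were lower at an unadjusted p under 0.05 (3 of 10, against 3.15%). Within version 6.1.2 there were 0, though the list median was -0.50, and within 7.0.1 there was 1, with a median of -0.20. TRPM1 was at 71.5 to 172 CPM in mature and 31.0 to 103 CPM in senile retinas, with Senile 2 the lowest (-0.67 ± 0.28, adjusted p = 0.661). CA10, the study's marker of all BCs, was at 1228 ± 424 and 1133 ± 447 CPM, well inside its spread.

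HC markers had a median of 0.15 over 6 tested of 8 with 0 at an unadjusted p under 0.05. Without Mature 4 the median was 0.01 with 2 of 7 lower, and without Senile 3 it was -0.16 with 0. CALB1, calbindin, was at 133 ± 16.5 and 157 ± 33.2 CPM. AC markers had a median of -0.18 over 12 tested of 14, with 1 lower at such a p (against 3.15% of all features), and of -0.26 with 5 lower without Mature 4 and Senile 3. The neuropeptide precursor TAC1 was higher at an unadjusted p under 0.05 (1.13 ± 0.48, adjusted p = 0.661, and 0.69 without Senile 3). PAX6, the transcription factor of ACs, was at 383 ± 59.4 and 335 ± 42.8 CPM.

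Among the glia, microglia markers had a median of 0.35 over 12 tested of 13. C1QA and C1QB, chains of the first complement component, and TYROBP, a signalling adaptor of myeloid cells, were higher at an unadjusted p under 0.05 (3 of 12, against 4.33%). There were 0 without Mature 3, Mature 5, Senile 2 or Senile 3, with medians of 0.47, 0.19, 0.32 and 0.27, and 5 without Mature 4, with a median of 0.51. C1QB was at 2.69, 3.52, 1.43, 3.27 and 0.919 CPM in Mature 1 to 5 and at 3.12, 6.11, 11.4, 3.21 and 4.45 CPM in Senile 1 to 5. Senile 3 was the highest, and Senile 1 and Senile 4 lay within the mature range (1.20 ± 0.48, adjusted p = 0.661, and 0.74 without Senile 3). CSF1R and P2RY12, receptors that are also on the list of microglia markers, had log2 fold changes of -0.06 and 0.09.

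GFAP, the filament of astrocytes and reactive Müller cells, was at 0.909, 1.67, 2.44, 1.60 and 0.954 CPM in Mature 1 to 5 and at 2.38, 2.68, 4.59, 4.35 and 4.00 CPM in Senile 1 to 5. Senile 1 alone lay below the highest mature retina. The log2 fold change was 1.14 ± 0.31 (adjusted p = 0.508; DESeq2 adjusted p = 0.03). It was the only one of 7 astrocyte markers and of 14 reactive glia genes tested at an unadjusted p under 0.05 in the higher direction, and the lists had medians of 0.01 and 0.12. Without Mature 4, whose reactive glia sum was the highest, that list had a median of 0.45 with 3 of 13 higher at such a p. VIM, the other filament of reactive glia, was at 86.5 ± 120 and 69.8 ± 51.1 CPM, with its mature spread due to Mature 4.

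Müller markers had a median of -0.35 over 10 tested of 12, which was -0.67 with 5 lower within version 6.1.2, -0.13 with 0 lower within 7.0.1, -0.50 with 4 lower without Mature 3 and -0.16 with 1 lower without Mature 4. At an unadjusted p under 0.05 the water channel AQP4 was higher (0.32 ± 0.14, adjusted p = 0.661) and CRYM lower (-1.05 ± 0.38, adjusted p = 0.645, and -0.55 without Mature 4). Of cells from outside the neural retina, vascular markers had a median of -0.03 over 11 tested, with the tight junction gene CLDN5 higher and the pericyte gene RGS5 lower at an unadjusted p under 0.05. Markers of pigment epithelium and melanocytes had a median of -0.03 over 9 tested and 0 at such a p. The sign of that median turned with the retinas, from 0.25 without Mature 4 to -0.49 without Mature 3 and -0.85 within version 6.1.2, the last 2 with 1 lower. Oligodendrocyte markers summed to at most 9.18 CPM, and those of lymphocytes and red cells to at most 12.1 CPM, in any of the 10 retinas, with ALAS2 higher and MS4A1 lower at such a p. MS4A1 was at 6.96 CPM in Mature 4, and its log2 fold change of -1.995 became 0.05 without this retina.

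**Figure D3:**
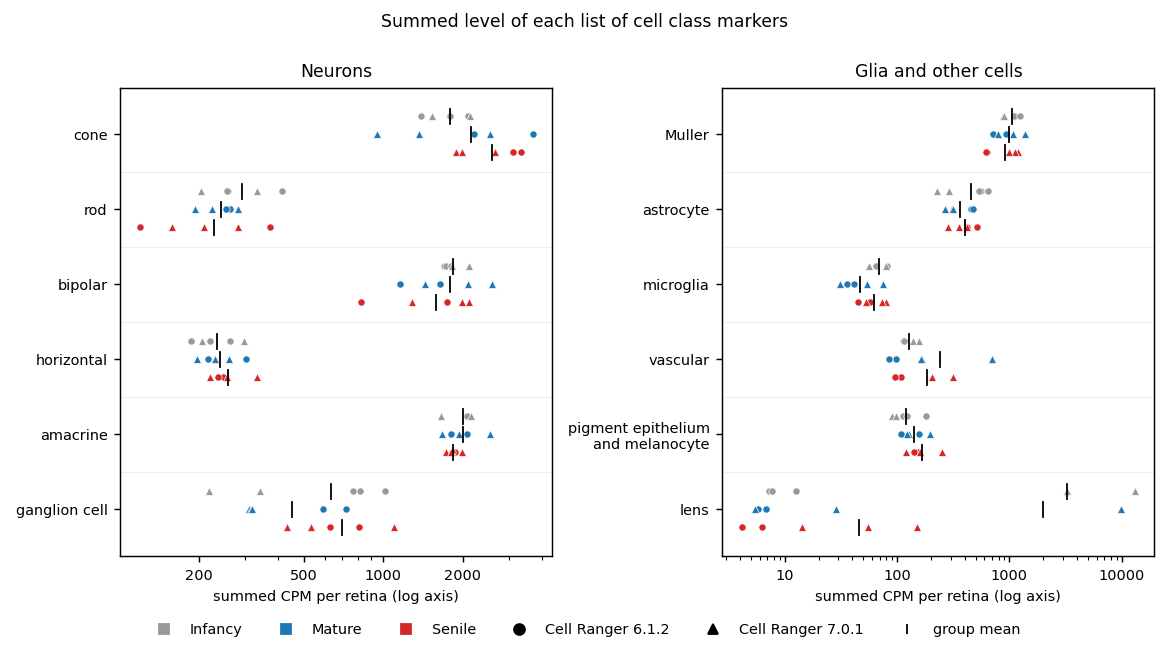
Summed CPM per retina (log axis) of the markers of 6 neuron classes (left) and of glia and other cells (right), coloured by stage, with circles for Cell Ranger 6.1.2, triangles for 7.0.1 and a bar at each mean of 5 retinas. The stages overlap in every class, and the lens markers are at 9906 CPM in Mature 4 and 13070 CPM in Infancy 4.

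Pathways often studied in ageing tissue were examined in the same way. Of the 23 genes of cell senescence and the cell cycle, 16 were tested, and CDKN2B and CDKN2C, which encode related inhibitors, were higher at an unadjusted p under 0.05. The list had a median of -0.21, and of -0.07 without Mature 4. CDKN1A, the p21 inhibitor, was at 1.52 CPM or less, too low to be tested.

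Of 32 complement and inflammation genes 18 were tested, with B2M, C1QA, C1QB and IL6 higher (4 of 18, against 4.33%) and CFI and NFKBIA lower (2 of 18, against 3.15%) at an unadjusted p under 0.05. Within version 6.1.2 the counts were 0 and 1, without Senile 3 they were 2 and 1 of 19, within 7.0.1 they were 4 and 1 of 21, and without Mature 4 they were 5 and 1 of 18. CFI, the protease that inactivates complement C3b, was at 13.1, 13.9, 12.6, 15.4 and 18.1 CPM in Mature 1 to 5 and at 8.02, 9.23, 12.5, 7.42 and 9.51 CPM in Senile 1 to 5. The stages did not overlap, though Senile 3 came close to Mature 3 (-0.73 ± 0.18, adjusted p = 0.492; DESeq2 adjusted p = 0.0203). IL6, a cytokine, was at 44.6 to 94.5 and 73.9 to 134 CPM (0.66 ± 0.22, adjusted p = 0.631), and C3, the central component of complement, was listed at 0 in all 10 retinas.

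Genes of the respiratory chain in the nucleus had a median of 0.27 over 19 tested of 35. NDUFS4, a subunit of complex I, was at 123, 117, 105, 104 and 107 CPM in Mature 1 to 5 and at 142, 129, 163, 131 and 144 CPM in Senile 1 to 5. The stages did not overlap, and the difference was small (0.27 ± 0.11, adjusted p = 0.661). NDUFB3 was higher (0.74, and 0.40 without Senile 3) and NDUFB5 lower at an unadjusted p under 0.05. With NDUFS4, 2 of 19 were higher (against 4.33%) and 1 lower (against 3.15%) at such a p. The list had a median of -0.07 with 0 higher and 1 lower within version 6.1.2. Within 7.0.1 the median was 0.50 with 8 of 19 higher and 0 lower. Senile 3 had the highest sum, 2029 CPM against at most 1390 CPM in the other retinas.

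Oxidative stress genes followed the same split between versions, with a median of 0.32 over 21 tested, -0.08 within version 6.1.2 and 0.58 within 7.0.1. Senile 3, named 7.0.1 but near the older version in its profile, had the highest sum of the senile retinas. This sum was 1483 CPM, against at most 817 CPM in the other senile retinas. The peroxidases PRDX2 (0.81 ± 0.36) and PRDX5 (1.07 ± 0.42) were higher at an unadjusted p under 0.05, and without Senile 3 they were at 0.42 and 0.76. The ribosomal protein genes, of which 5 of 25 could be tested, had a median of 0.26 and 0 at such a p, with medians of -0.20 within version 6.1.2, 0.80 within 7.0.1, 0.73 without Mature 4 and 0.05 without Senile 3.

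Among chaperones HSPE1, the mitochondrial partner of HSP60, was higher at an unadjusted p under 0.05 (1 of 12), at 20.9 ± 8.01 CPM in mature and 41.5 ± 18.6 CPM in senile retinas (log2 fold change 0.96, and 0.58 without Senile 3). Autophagy and lysosome genes had 1 of 22, CST3, described below. Lipid and cholesterol genes (19 tested), genes of the visual cycle (14 tested), immediate early genes (17 tested) and ephrin genes (16 tested) had 0 at such a p in either direction, with medians of 0.04, 0.04, -0.16 and -0.03. Without Mature 4 and Senile 3 the medians were -0.12, -0.07, 0.01 and -0.14, with 2, 0, 0 and 2 lower.

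Extracellular matrix genes had a median of -0.30 over 25 tested of 34, with 5 lower (COL4A1, COL4A4, COL6A1, COL18A1 and TNC) and 0 higher at an unadjusted p under 0.05 (5 of 25, against 3.15% of all features and 4.84% of single named genes). COL4A1, a chain of basement membrane collagen, was at 26.6, 23.1, 18.4, 77.7 and 26.4 CPM in Mature 1 to 5 and at 17.4, 16.2, 16.9, 18.2 and 21.4 CPM in Senile 1 to 5. Mature 4 was the highest, and the other mature retinas overlapped with senile ones in Mature 3 (-0.98 ± 0.34, adjusted p = 0.642, and -0.47 without Mature 4). Without Mature 4 the list had a median of -0.13 with 3 lower. It was -0.29 with 5 of 24 lower within version 6.1.2. Within 7.0.1 it was -0.32 with 2 of 26 lower and 1 higher. Without the version term the median was -0.30 with 1 of 25 lower.

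Clock genes had a median of -0.18 over 19 tested of 21, with CRY2, NPAS2 and TEF lower (3 of 19, against 3.15%) at an unadjusted p under 0.05. Within version 6.1.2 there was 1, within 7.0.1 there were 0, and without Mature 4 and Senile 3 there were 5. CRY2, a repressor of the clock, was at 73.1 to 97.1 CPM in mature and 54.2 to 77.9 CPM in senile retinas, where Senile 3 alone overlapped (-0.38 ± 0.13, adjusted p = 0.631). PER3, the most abundant period gene, was at 764 ± 218 and 672 ± 119 CPM. The time of day at which the retinas were taken is not stated.

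Glutamate receptors had a median of -0.13 over 18 tested and receptors of GABA and glycine one of -0.13 over 18, each with 1 lower at an unadjusted p under 0.05 (GRIK4 and GABRG3). Without Mature 4 and Senile 3 the medians were -0.19 and -0.26, with 3 and 4 lower, against 979 lower of 11813 single named genes. Genes of the photoreceptor synapse had a median of -0.01 over 16 tested with SYN3 lower, and genes of the outer segment and cilium one of 0.15 over 15 with ROM1 higher. Without these 2 retinas they were -0.14 with 3 lower and -0.05 with 1 higher. RIMS2, a ribbon synapse scaffold, was at 2802 ± 670 and 3113 ± 625 CPM, and EYS, an outer segment protein, at 420 ± 285 and 705 ± 438 CPM. DNA repair and nuclear structure genes had a median of -0.17 over 22, with the methyltransferase DNMT3A and the nuclease MRE11 lower at such a p, and 4 lower without these retinas.

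Of the 20 genes that the study follows across the 3 stages, 2 had an unadjusted p under 0.05, PDE6H and CST3, both higher. The study chose them on these retinas, so they are no independent evidence of direction. CST3, the protease inhibitor cystatin C, was at 749, 860, 112, 216 and 152 CPM in Mature 1 to 5 and at 861, 1771, 2184, 135 and 464 CPM in Senile 1 to 5. The levels of both stages were split by library, with the retinas of version 6.1.2 and Senile 3 at 749 CPM or more and all others at 464 CPM or less. The log2 fold change was 1.73 ± 0.66 (95% interval 0.29 to 3.17; adjusted p = 0.657; DESeq2 adjusted p = 0.2), and it was 0.73 without Senile 3.

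For 16 of these genes the 95% interval lay within 1 unit on either side of 0. The study describes DACH1, THRB, MAML2, INPP4B and CADM2 as rising with age in long-wave cones. It describes CLUL1, CRYBB2, AUTS2 and RNF2 as falling in rods, and follows CHAT, MEGF11 and EFNB2 within subsets of ACs. Sums over all nuclei do not measure levels within a cell type, so the values here do not test those findings. DACH1, THRB, the thyroid hormone receptor of cones, and MAML2 had log2 fold changes of 0.17 ± 0.21, 0.02 ± 0.14 and -0.07 ± 0.14. INPP4B, CADM2, ERBB4 and GRIA4 lay between -0.01 and 0.10, AUTS2 was at -0.21 ± 0.16 and RNF2, a Polycomb subunit that AUTS2 partners, at 0.01 ± 0.17. CHAT, the enzyme of acetylcholine synthesis in starburst ACs, was at 15.3 ± 3.97 and 13.6 ± 2.53 CPM (-0.27 ± 0.23). MEGF11, the spacing receptor of HCs, had -0.43 ± 0.24, with -1.06 within version 6.1.2 and -0.01 within 7.0.1. FOXP2 had 0.09 ± 0.23 and CA10 had -0.18 ± 0.26.

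EFNB2, an ephrin ligand on cell surfaces, was at 85.5, 81.5, 136, 143 and 158 CPM in Mature 1 to 5 and at 85.8, 90.0, 68.3, 117 and 124 CPM in Senile 1 to 5. The retinas of version 6.1.2 were alike in both stages and those of 7.0.1 were lower in the senile stage (-0.35 ± 0.18, adjusted p = 0.68). Its receptors EPHB1 and EPHA4 had log2 fold changes of 0.07 ± 0.21 and 0.14 ± 0.16. CRYBB2, a lens crystallin, was at 7963 CPM in Mature 4 and at 4.05 to 21.9 CPM in the other mature retinas, against 3.25 to 128 CPM in senile ones. Its log2 fold change of -3.81 ± 2.08 with all retinas became 1.06 without Mature 4.

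The retinas differed by kind of feature as well. Beside single named genes, the annotation holds copies of a gene numbered after li, features antisense to a gene, LINC features (long intergenic RNAs) and features without a name. Single named genes had a median log2 fold change of -0.06, with 212 higher (1.79%) and 573 lower (4.84%) at an unadjusted p under 0.05 of 11847 tested. Antisense features had a median of 0.20, with 443 higher (5.66%) and 82 lower (1.05%) of 7827. Numbered copies had 219 higher (8.12%) and 69 lower (2.56%) of 2696, LINC features 264 (5.58%) and 131 (2.77%) of 4733, and unnamed features 44 (23.7%) and 4 (2.15%) of 186. Within version 6.1.2 single named genes had 116 higher and 362 lower, but within 7.0.1 they had 280 higher and 232 lower, with medians of -0.06 and -0.07. The other 4 kinds had more higher than lower features within both versions.

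As a share of UMIs, antisense features made up 4.79%, 4.60%, 4.78%, 5.66% and 4.49% in Mature 1 to 5 and 5.65%, 5.73%, 5.92%, 5.24% and 7.28% in Senile 1 to 5. Mature 4 was the one mature retina inside the senile range. The means were 4.87% ± 0.465 and 5.96% ± 0.775 (2-sided exact permutation p = 0.0238, adjusted p = 0.218 over 11 library values; the smallest p the design allows is 0.00794). Numbered copies made up 7.45% ± 0.291 and 8.10% ± 0.451 (p = 0.0397 by the same exact test, adjusted p = 0.218). Single named genes made up 68.0% ± 3.17 in both stages (p = 1 by the exact test). The median UMIs per nucleus, given above, had a lower mean in senile retinas but overlapped between the stages, and the part of depth in these shares was not tested. Reads of copies and of overlapping antisense features could be split between features, so these counts are uncertain.

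LINC-FRMD8-1, the most abundant feature, took 15.9%, 21.2%, 14.4%, 18.5% and 14.0% of the UMIs of Mature 1 to 5 and 12.1%, 14.9%, 19.1%, 12.6% and 14.4% of those of Senile 1 to 5. The stages overlapped broadly (log2 fold change -0.28 ± 0.21, adjusted p = 0.752). Its share of the library affects the CPM of every other gene, and with it left out of the table edgeR again called 0 features.

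**Figure D4:**
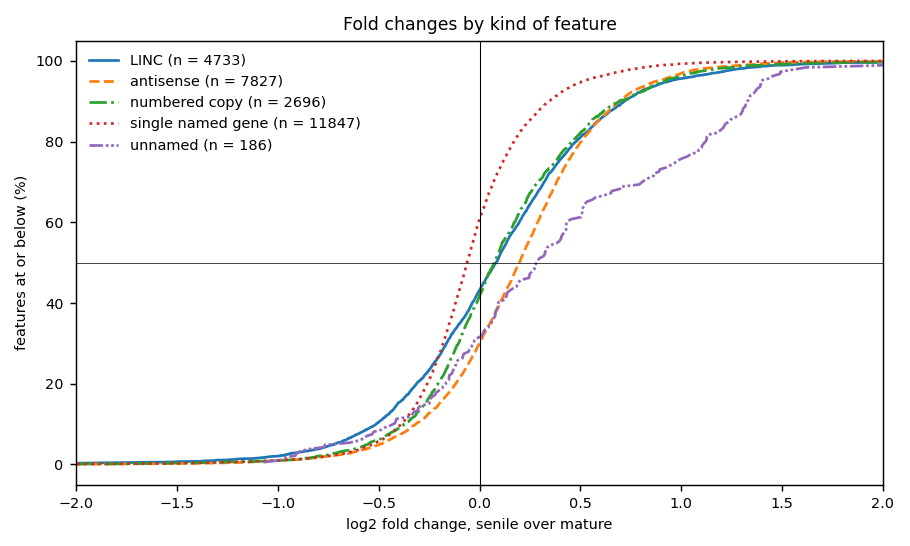
Cumulative share of features (vertical, %) by log2 fold change of senile over mature retinas (horizontal, shown from -2 to 2) for the 5 kinds of feature, with the number tested in the key. The curve of single named genes crosses 50% at -0.06 and that of antisense features at 0.20.

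Beside ADAMTS19, the features with the smallest p of all were of these other kinds. RPS6-AS-5, antisense to a ribosomal protein gene, was at 3.57, 3.29, 2.55, 2.45 and 2.40 CPM in Mature 1 to 5 and at 8.06, 9.90, 7.21, 5.26 and 6.46 CPM in Senile 1 to 5. Every senile retina lay above every mature one, and infant retinas were at 0.367 to 0.736 CPM (log2 fold change 1.29 ± 0.19, adjusted p = 0.343; DESeq2 adjusted p = 2.997e-10). GOLGA2li1, a numbered copy of a Golgi matrix gene, was at 2.44 to 9.06 and 13.7 to 28.7 CPM, and at most 1.96 CPM in infancy (2.01 ± 0.33, adjusted p = 0.343). LINC-RPS6-38 was at 5.87 to 19.5 and 21.1 to 41.7 CPM, and at most 2.80 CPM in infancy (1.29 ± 0.22, adjusted p = 0.343).

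LINC-OR6C1-2 and LINC-TENT4B-1 had log2 fold changes of 2.83 ± 0.47 and 1.35 ± 0.23, and the copies LIN1li12 and ZFP39li44 had 1.36 ± 0.23 and 1.11 ± 0.19, all with an adjusted p of 0.343. Of the antisense features, MKKS-AS-1 had 1.09 ± 0.22 (adjusted p = 0.36) and L1RE1-AS-56, antisense to a LINE-1 copy, had -1.49 ± 0.22 (adjusted p = 0.343). The last was at 0.458 to 3.06 CPM in senile and 1.24 to 7.25 CPM in mature retinas, higher in version 7.0.1 in both stages. Among unnamed features NA-512-1, NA-494-1 and NA-1444-1 had 1.27 ± 0.25, 1.39 ± 0.30 and -0.98 ± 0.26.

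Numbered copies fall into families, of which 12 had at least 20 copies tested. These families were drawn up after the values had been seen and are described with no test. At an unadjusted p under 0.05, 8.12% of numbered copies were higher and 2.56% lower, against 4.33% and 3.15% of all features. At such a p, 32 of 150 L1RE1 copies, which bear the name of the LINE-1 retrotransposon, were higher and 0 lower. These L1RE1 copies had a median log2 fold change of 0.31. Their summed level was at 1795, 1770, 1459, 1539 and 1599 CPM in Mature 1 to 5 and at 1883, 2096, 1948, 1763 and 2008 CPM in Senile 1 to 5. Within version 6.1.2 the senile retinas lay above the mature ones, and within 7.0.1 too, while Senile 4 overlapped with Mature 1 and 2 across versions. Copies of LORF2, also a LINE-1 name, had 19 higher and 5 lower of 172.

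ZFP39, a name of zinc finger genes, had 15 of 40 copies higher and 0 lower, with a median of 0.56 and a summed level of 366 to 541 CPM in mature and 539 to 772 CPM in senile retinas. VMN2R116, a name of vomeronasal receptor genes, had 13 of 28 higher and 0 lower, with a median of 0.58 and a summed level of 171 to 356 and 303 to 494 CPM. Both sums were lower in infancy, at 289 to 372 CPM and 85.1 to 161 CPM. POL and ENV, the names of retroviral genes, had 6 and 4 higher and 2 and 0 lower of 50 and 26. ENV had a median of 0.24, which was -0.03 within version 6.1.2 and 0.38 within 7.0.1.

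Copies of ribosomal protein genes had 3 higher and 1 lower of 43 (RPL21), 3 and 1 of 31 (RPL7), 1 and 0 of 29 (RPL6) and 0 and 0 of 22 (RPL31) at such a p. TSORF copies, the largest family, had 18 higher and 11 lower of 277 and a median of 0.04, and LIN1 copies 3 higher and 1 lower of 26. The copies of a family share sequence, so they are not independent of each other and reads could be split between them.

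**Figure D5:**
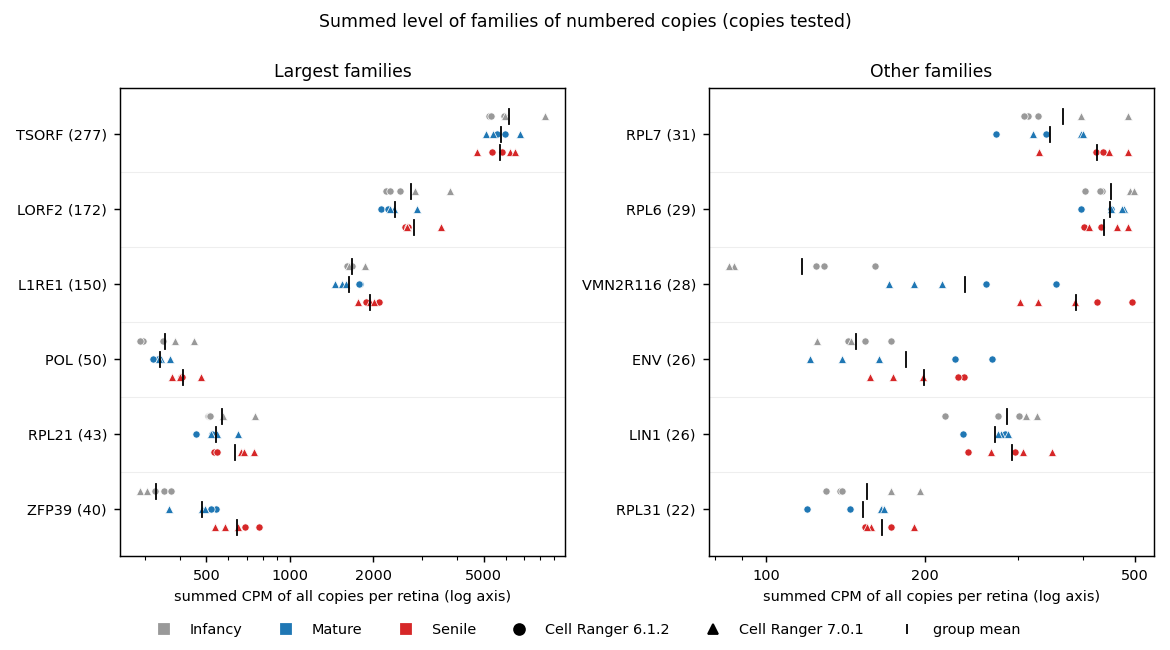
Summed CPM of all copies per retina (log axis) for the 12 families of numbered copies with at least 20 copies tested (number in brackets), coloured by stage, with circles for Cell Ranger 6.1.2, triangles for 7.0.1 and a bar at each mean of 5 retinas. VMN2R116 copies reach from 85.1 to 161 CPM in infancy and from 303 to 494 CPM in the senile stage, and TSORF copies overlap in all stages.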

How the data were processed

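Single-nucleus libraries of 15 TS retinas had been made with the 10x Genomics platform. The authors mapped the reads with Cell Ranger, using the TS_3.0 assembly, and deposited raw UMI counts per feature and barcode, with no normalization. The methods name v7.0, the submitters' processing notes 5.0.1 or 7.0.1, and the file headers 6.1.2 or 7.0.1. Whether intron reads were counted is not given in the sources used here. Only 3 of 83605 features start with MT-, so the mitochondrial limit rests on these.

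Counts of kept nuclei were summed per retina with Python 3.11.15 (numpy 2.4.6, pandas 2.3.3, scipy 1.17.1). Doublets were not removed. The fit used edgeR 4.0.16 in R 4.3.3 (filterByExpr, TMM, quasi-likelihood F test, stage with the header version, Benjamini-Hochberg over all features tested). DESeq2 1.42.0 was an alternative, in which 1818 features had no adjusted p. No sex term was used, since no label gives sex. Labels do not say whether retinas come from separate animals; the study gives 5 TSs per group.

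Members and lists were chosen with earlier results of these data known, so counts in lists are descriptions. Single named genes with a mean of at least 5 CPM in the higher stage and the smallest p were named, 10 per direction, since none passed; of each list, at most 3 by level, beside members at an unadjusted p under 0.05, which were added after their values were seen. Library values were compared by 2-sided exact permutation of 5 against 5 retinas. The shares of nuclei with a UMI were given without a test, because the genes had been chosen on the same counts, a departure from the design. The 13 symbols of mitochondrial genome genes looked up were not found under those names. P-values set the difference between the stages against the spread between these retinas. Depth was 13429873 to 50900459 UMIs per retina. Some list members are not reported here by name, though medians and sums of the lists include them.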

Additional observations from a re-analysis of the deposited data

Results flagged for a closer look

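In groups of 5 retinas a highest or lowest retina was looked for that stood far from the others, over 190 groups of values, and others below means the 4 others of that stage. There were 19 such values, 10 of them in Mature 4 and 3 in Senile 3, and many of these values share genes. Chance flags about 1 in 20 groups if values are normally distributed. Levels such as those of the lens markers are skewed, so the rate for these groups is not known.

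Mature 4 stood apart in the summed CPM of lens markers (9906, others at most 28.8), in CRYBB2 (7963 CPM), vascular markers (693 CPM), lymphocyte and red cell markers (11.9 CPM, others at most 6.78), ribosomal proteins (504 CPM, others at most 183), reactive glia (462 CPM, others at most 94.7) and cell senescence and cell cycle genes (414 CPM, others at most 294). It was also highest in FKBP5 (64.6 CPM) and in the antisense share of UMIs (5.66%), and lowest in genes of the photoreceptor synapse (6728 CPM, others at least 9537). Senile 3 stood apart in NME2 (740 CPM), in oxidative stress genes (1483 CPM, others at most 817) and in cell senescence and cell cycle genes (339 CPM, others at most 294).

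Mature 5 had the fewest nuclei (4231, others at least 8228), and Senile 5 the most UMIs of its stage (44294013, others at most 21831405). Senile 2 was highest in NUDT4B (10.1 CPM, others at most 4.02), Mature 3 in PDE6H (274 CPM, others at most 154), and Senile 5 in LORF2 copies (3508 CPM, others at most 2664). Mature 2 was lowest in LIN1 copies (235.9 CPM, others at least 276).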

How the results depend on the processing

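No edgeR setting with the filter on low counts called a feature, including RLE factors, no version term, all deposited barcodes, thinning to equal totals, all 15 retinas in the fit, each version alone and each retina left out. DESeq2 called 123 features higher and 36 lower, and edgeR without the filter 41 and 7, of which 1 belonged to the gene lists; the cause was not tested. With the replicate block edgeR called 0 (933 higher and 615 lower at an unadjusted p under 0.05). Same-numbered retinas correlated in their deviations at 0.46, 0.52, -0.41, 0.21 and 0.35, so the numbers do not pair them, and not every retina correlated best with its own number. Of 460 alternative values for the 20 genes with the smallest p, 436 kept direction and side of the threshold, 24 passed it and 0 turned. The alternatives reuse the counts on which the 20 were chosen, so this is no separate support. By difference of medians, the share of single named genes was -0.648 (senile minus mature, percent of UMIs) and that of unnamed features 0.118. With each retina left out in turn, the differences were -16120000 to -6826000 for UMIs, -1709 to -831.1 for median UMIs and -552.7 to -263.2 for median genes per nucleus. For the percent of UMIs they were -0.886 to 1.166 (single named genes), 0.508 to 0.792 (numbered copies) and 0.770 to 1.298 (antisense).

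Log2 fold changes that turned sign lay mostly near 0. Without the filter THRB was at -0.0095 and RNF2 at -0.0116. With the library profile score in place of the version term, chosen after seeing the data, THRB was at -0.036, CADM2 at 0.0133, GRIA4 at 0.0165 and EPHB1 at -0.0077. INPP4B was at 0.0079 without the version term. With all barcodes INPP4B was at 0.0006 and CADM2 at 0.0046, and thinned they were at 0.0133 and 0.0067, with GRIA4 at 0.0078. Within 6.1.2 INPP4B was at 0.2481, CADM2 at 0.1532, EPHB1 at -0.2123, ALAS2 at -0.001 and PRDX2 at -0.0238. Within 7.0.1 RNF2 was at -0.0977, ERBB4 at -0.125 and CHAT at 0.0159. Without Mature 4 and Senile 3, also chosen after seeing the data, INPP4B was at 0.0171, CADM2 at 0.0711, EPHB1 at -0.1406, CRYBB2 at 1.2478, BFSP1 at 0.4336 and BFSP2 at 0.2902. Leaving out 1 retina gave -0.0619 to 0.1016 (THRB), -0.1582 to 0.0134 (MAML2), -0.071 to 0.0607 (INPP4B), -0.1228 to 0.1109 (CADM2), -4.6007 to 1.0553 (CRYBB2), -0.111 to 0.1049 (RNF2), -0.039 to 0.2976 (ERBB4), -0.1645 to 0.1067 (GRIA4), -0.1039 to 0.2047 (EPHB1), -0.0068 to 0.3186 (FOXP2), -5.5682 to 0.2828 (BFSP1), -4.7187 to 0.3192 (BFSP2) and -2.5087 to 0.0531 (MS4A1). The lens genes turned without Mature 4; other causes were not tested.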
